A study of Mus musculus with 6 samples.

Results

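Solute carriers are the membrane proteins that move nutrients, metabolites, ions and metals across the plasma membrane and the membranes of organelles. The 143 rows described here were chosen by symbol and by count. They carry a symbol of the form Slc, family number, a, member number, and they had at least 10 counts in each of the 6 libraries. Of 41079 rows in the count table, 353 matched the symbol pattern, 47 of them were mitochondrial Slc25 carriers and were left out, and 6 further rows (Slc2a5, Slc1a3, Slc7a11, Slc40a1, Slc11a1 and Slc11a2) were left out by name. Of the 300 rows that remained, 143 passed the count minimum. The symbol pattern also caught 3 genes that are not carriers (Slc7a6os, Slc4a1ap and the pseudogene Slc2a4rg-ps), so 140 carriers were followed. The rule used the counts themselves and no test of their difference between conditions. A minimum in every library does leave out rows that are low in only 1 condition, such as Slc36a2 and Slc13a3.

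Carriers of the SLC superfamily work as facilitators that let a solute run down its gradient, as exchangers, or as pumps driven indirectly by sodium or proton gradients. Several need a partner: the large neutral and cationic amino acid light chains are carried to the surface by the heavy chain Slc3a2, and the lactate carriers Slc16a1 and Slc16a3 by basigin. Microglia, the resident macrophages of the brain, take up glucose, glutamine and arginine through such carriers, and digest engulfed material in lysosomes whose membranes hold exporters for the amino acids, peptides, nucleosides, sugars, heme and metals released there.

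The cells were primary microglia from the brains of C57Bl/6N mice aged 1 to 3 days, shaken off mixed glial flasks that had been stimulated with medium conditioned by L-929 fibroblasts, a source of macrophage growth factor. In the study's methods each flask pooled several neonatal brains. The 3 control libraries came from microglia kept in serum-free DMEM/F12, a defined basal medium. The 3 optimized libraries came from microglia kept in the same medium with hTGF-β1, hIL-34 and hCX3CL1, each at 100 ng/mL, to which the study's methods add cholesterol, insulin-transferrin-selenium and a collagen IV coating. Both groups shared the flask stage with L-929 medium and a short exposure to serum while the cells attached. The effects of the single additions therefore cannot be told apart. The labels do not say whether the libraries came from separate cultures, though the study calls its replicates biological, so p-values measure the spread between these libraries. In bulk RNA, fewer cells of a type and less RNA per cell cannot be told apart.

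Library totals ran from 20628148 to 27261839 counts, and the 143 rows took 0.742% to 0.884% of them. Levels are given in CPM, counts scaled to a common library size, here with TMM factors, a correction for library composition. Of 8 microglial markers 7 were in the table, and their summed level ran from 5881 to 5978 CPM in control and from 10318 to 12030 CPM in optimized libraries. Summed levels of all 7 neuronal markers stayed at or under 4.60 CPM and of all 5 endothelial markers at or under 6.34 CPM. Astrocyte markers (5 of 6 in the table) summed to 27.1 to 30.0 CPM in control and 18.3 to 20.8 CPM in optimized libraries, a difference carried by Aldh1l1, without which the sums were 10.8 to 14.9 and 13.9 to 16.1 CPM. The 5 oligodendrocyte markers summed to 125 to 140 and 156 to 190 CPM. The 4 precursor markers summed to 37.5 to 51.1 and 448 to 631 CPM, of which Cspg4, also a pericyte gene, made up 435 to 618 CPM in the optimized libraries. The 8 fibroblast and pericyte markers summed to 32.6 to 46.5 and 28.9 to 149 CPM, the highest in optimized replicate 3 (45.3 CPM or less in the other optimized libraries), with Slc6a13 at 0 counts in every library. The part of these cells in the carrier differences was not tested.

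The library labelled optimized replicate 1 stood apart. In it, 115 rows of the table had at least 10 counts while every other library had at most 1, against 0 to 5 such rows in each of the others. These rows summed to 3848 counts, or 187 CPM of raw library size, and included Pigr (171 counts), Sprr2f (168 counts) and Sftpd (111 counts), genes of epithelia. Of the 115 rows, 6 were solute carrier rows, all of them outside the count rule. Among the members, 4 were more than 1.5 times higher in that library than in either other optimized library (Slc18a1, Slc26a2, Slc18a2 and Slc1a5), and none of these passed the test. Without that library, Slc18a1 was at -1.50 (adjusted p = 0.0015) and Slc26a2 at -0.59 (adjusted p = 0.0037). For substrate groups whose counts of calls moved by more than 1 call, or whose median changed sign, without that library, the counts without it are given beside the others.

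**Figure D1:**
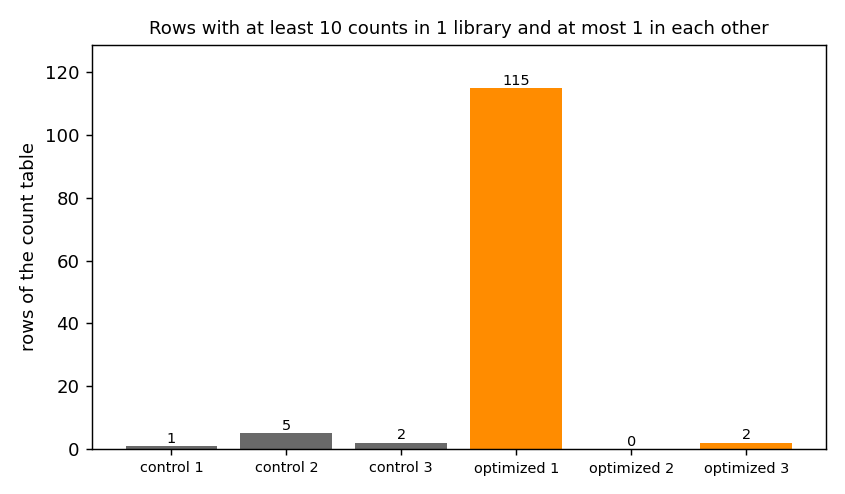
Number of table rows (vertical axis) with at least 10 counts in the named library and at most 1 in each of the others, for the 3 control (grey) and 3 optimized (orange) libraries. Optimized replicate 1 had 115 such rows and the other libraries 0 to 5.

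The carriers were called in both directions. By edgeR's quasi-likelihood test, with p-values adjusted by Benjamini-Hochberg over 14618 genes, 39 of the 143 members were higher and 26 lower in optimized microglia, and 78 did not pass the adjusted p threshold of 0.05. That is 45.5% of the members, where 29.8% of all genes tested passed. Of all genes, 14.7% were called higher and 15.2% lower, against 27.3% and 18.2% of the members. Among genes that met the same count minimum, 30.0% passed, 14.5% higher and 15.6% lower. The members were of somewhat higher abundance than these, with a median level of 25.2 CPM against 21.0 CPM, and the part of abundance in the share was not tested. The 3 optimized and 3 control values did not overlap for 83 members (58.0%), where 43.9% of all genes showed this.

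The lean toward higher calls depended on the scaling. Higher calls made up 60.0% of the members' calls with TMM factors, but 42.6% with library size alone (23 higher, 31 lower) and 38.0% to 39.6% with limma on the FPKM values. Of the calls among all genes, 49.1% were higher with TMM factors, 32.3% with library size alone and 28.4% to 31.3% with limma. The members' share was the larger in each of these settings, and the difference was not tested. Library size alone moved the median log2 fold change of all genes from 0.01 to -0.12, and that of the members from 0.08 to -0.05. All 16 members that lost their call under it had been called higher. Without optimized replicate 1, 44 members were higher and 30 lower, and 61 of the 65 calls were kept, all but Slc12a2, Slc45a3, Slc66a3 and Slc9a5. Over the 6 libraries, 20 calls were lost when some library was left out and 45 were kept whichever it was. Called differences were mostly modest: 8 higher and 7 lower calls reached 1 on the log2 scale, while 17 higher and 7 lower calls stayed under 0.5.

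**Figure D2:**
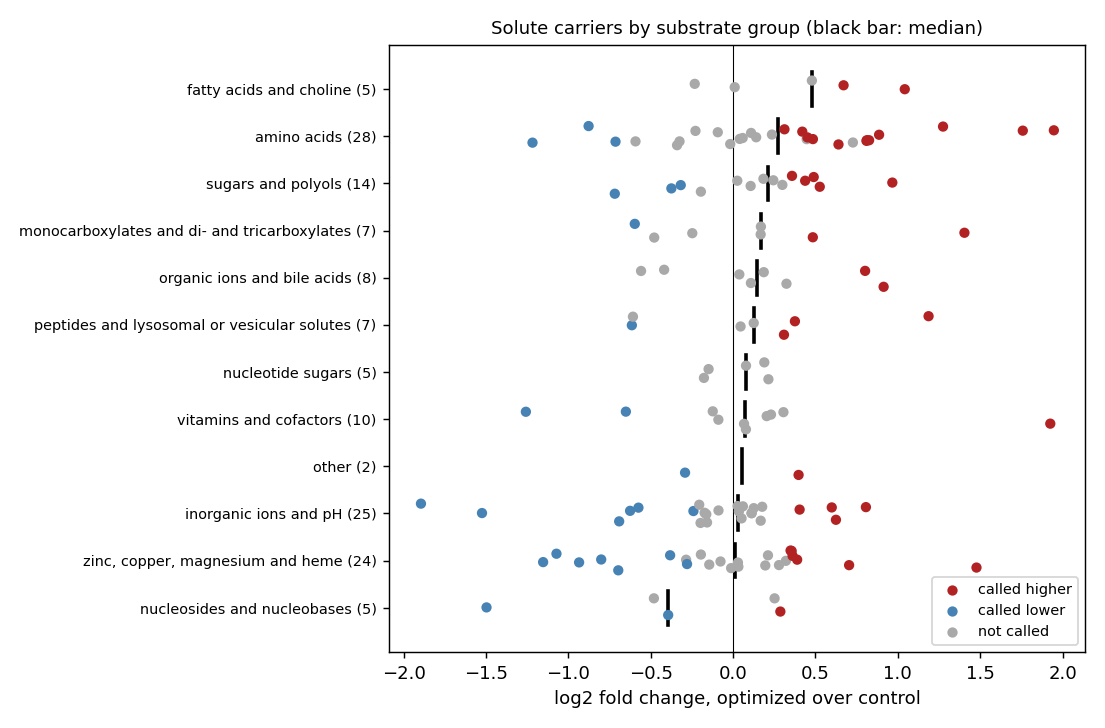
Log2 fold change, optimized over control (horizontal axis), of each carrier (1 point) by substrate group (vertical axis, with the number of carriers), in red if called higher, blue if called lower and grey if not called. Black bars are medians. Of the amino acid carriers 12 of 28 were called higher and 3 lower, and of the metal carriers 6 of 24 were higher and 7 lower.

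Amino acid carriers were the largest group, and 12 of 28 were higher, 3 lower and 13 not called, with a median log2 fold change of 0.27. The higher calls of the group include the heavy chain Slc3a2, the creatine carrier Slc6a8 and Slc7a4, whose substrate is not settled. The median kept its sign under library size scaling (0.14; 9 higher, 4 lower) and under limma on log2(FPKM + 1) (0.05; 7 higher, 4 lower). The 3 members of greatest increase were Slc7a4, Slc7a2 and Slc6a8, and the members that fell were Slc16a10, Slc7a1 and Slc43a2.

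Cationic amino acid carriers of the Slc7 family moved in both directions. Slc7a4 (chr16:17386477-17401122, GRCm39), a relative of the cationic carriers whose substrate is not settled, measured 2.23, 2.37 and 2.56 CPM in control and 9.14, 9.49 and 9.05 CPM in optimized libraries. All optimized values lay above all control values, a log2 fold change of 1.95 ± 0.15 (SE, n = 3 and 3) with an adjusted p of 6.8e-06. P2rx6, at a log2 fold change of 2.14, overlaps 32.6% of the exons of Slc7a4 on the other strand, with 0.15 times its count. Slc7a2 (chr8:41315431-41375345), the arginine carrier that macrophages raise to feed nitric oxide synthase and arginase, measured 6.12, 5.87 and 5.97 CPM and then 25.4, 16.4 and 19.0 CPM. The groups did not overlap, at 1.76 ± 0.17 with an adjusted p of 3.1e-05. Slc7a1, the arginine and lysine carrier of most growing cells, went the other way, from 31.3, 28.1 and 26.6 CPM to 17.7, 14.0 and 15.2 CPM. Its log2 fold change was -0.88 ± 0.12 with an adjusted p of 0.00032. Per length, Slc7a1 was above Slc7a2 in control (3.95 against 0.671 FPKM), and in optimized libraries the pair lay close (1.96 and 2.08 FPKM).

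Light chains that pair with Slc3a2 were partly higher. Slc3a2, their shared heavy chain, measured 187, 192 and 205 CPM in control and 221, 297 and 281 CPM in optimized libraries (0.45 ± 0.11, adjusted p = 0.014). Slc7a8, which exchanges neutral amino acids, was the most evenly raised, with 150, 141 and 158 CPM against 263, 264 and 262 CPM (0.81 ± 0.08, adjusted p = 4.4e-05). Slc7a6, which exchanges cationic for neutral amino acids, measured 23.0, 20.9 and 22.6 CPM and 46.6, 38.7 and 37.6 CPM (0.89 ± 0.11, adjusted p = 0.00017). The optimized values of all 3 genes lay above their control values. Slc7a5, the light chain for leucine and other large amino acids, did not pass the test (-0.33 ± 0.13, adjusted p = 0.094), and neither did Slc7a7 (0.24 ± 0.10, adjusted p = 0.11).

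The other members that fell were Slc16a10 and Slc43a2. Slc16a10 (chr10:39909448-40018304), a facilitator of aromatic amino acids, measured 161, 159 and 147 CPM in control and 70.0, 62.9 and 67.9 CPM in optimized libraries. Its log2 fold change was -1.22 ± 0.08, with an adjusted p of 3.9e-06. Slc43a2, a facilitator of branched-chain amino acids, fell from 392, 357 and 352 CPM to 257, 205 and 210 CPM (-0.71 ± 0.11, adjusted p = 0.00062). Neither gene's groups overlapped.

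Sodium-coupled carriers for glutamine and alanine were raised by smaller steps. Slc38a1 measured 77.9, 69.2 and 64.5 CPM and then 113, 91.9 and 90.6 CPM (0.48 ± 0.11, adjusted p = 0.0092). Slc38a2, the form induced by amino acid shortage, measured 118, 109 and 112 CPM and then 172, 134 and 148 CPM (0.42 ± 0.10, adjusted p = 0.012). Both had optimized values above all control values, but both calls, like that of Slc3a2, were lost under 6 of 15 alternatives. Without control replicate 2 the adjusted p was 0.051 for Slc38a1, 0.064 for Slc38a2 and 0.072 for Slc3a2. Both Slc38 calls were also lost without control replicate 3, and that of Slc3a2 without control replicate 1 or optimized replicate 3. Slc1a5, the glutamine exchanger, was at 0.04 ± 0.18 with overlapping groups. Slc38a10, of the same family, rose by 0.81 ± 0.09 and Slc38a6 by 0.64 ± 0.12, a call lost under the 3 limma alternatives (adjusted p up to 0.060).

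The creatine carrier was the called member among the 4 Slc6 carriers. Slc6a8 (chrX:72716728-72726108), the creatine carrier, measured 77.4, 72.0 and 85.5 CPM in control and 190, 193 and 186 CPM in optimized libraries. The optimized values lay close together and above all control values, at 1.27 ± 0.09 with an adjusted p of 3.9e-06. Slc6a6, the taurine carrier and second by FPKM averaged over all 6 libraries, measured 1105, 1010 and 1016 CPM against 1147, 867 and 922 CPM, with overlapping groups and an adjusted p of 0.62.

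Of the amino acid carriers of lysosomes and endosomes, Slc36a1 and Slc66a1 were raised, and Slc38a7 and the arginine sensor Slc38a9 were not called. Slc36a1, which exports small amino acids from lysosomes with protons, measured 63.3, 59.1 and 56.5 CPM in control and 123, 93.5 and 100 CPM in optimized libraries (0.83 ± 0.11, adjusted p = 0.00035). Slc66a1, an exporter of cationic amino acids, was at 0.31 ± 0.09 with an adjusted p of 0.030, a call lost under 10 of 15 alternatives, which include the removal of any library but optimized replicate 1 (adjusted p from 0.051 to 0.13). Slc38a9, which reports lysosomal arginine to mTORC1, was at 0.14 ± 0.14 with an adjusted p of 0.50. Slc38a7 was at -0.02 ± 0.09 with overlapping groups (adjusted p = 0.91). Of 14 listed genes of amino acid sensing at the lysosome, 13 were tested and had a median of -0.16; 4 fell (Mitf, Tfeb, Rptor and Tfe3) and Rragd rose by 0.38. With library size alone 7 of them were lower and none higher, with Rragd at 0.26 (adjusted p = 0.16), and with RLE factors 3 were lower, with Rptor at an adjusted p of 0.053. The Rragd call was also lost without control replicate 1 (adjusted p = 0.083) or control replicate 3 (0.078). Each of the 4 falls was lost on removal of some single library as well. The Tfeb (adjusted p from 0.092 to 0.13) and Tfe3 (0.066 to 0.13) calls ended on removal of any control library or optimized replicate 3. That of Rptor ended on removal of any library but optimized replicate 1 (0.053 to 0.18). Mitf lost its call when optimized replicate 3 (0.066) or either of control replicates 1 and 2 (0.062 and 0.059) was removed.

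**Figure D3:**
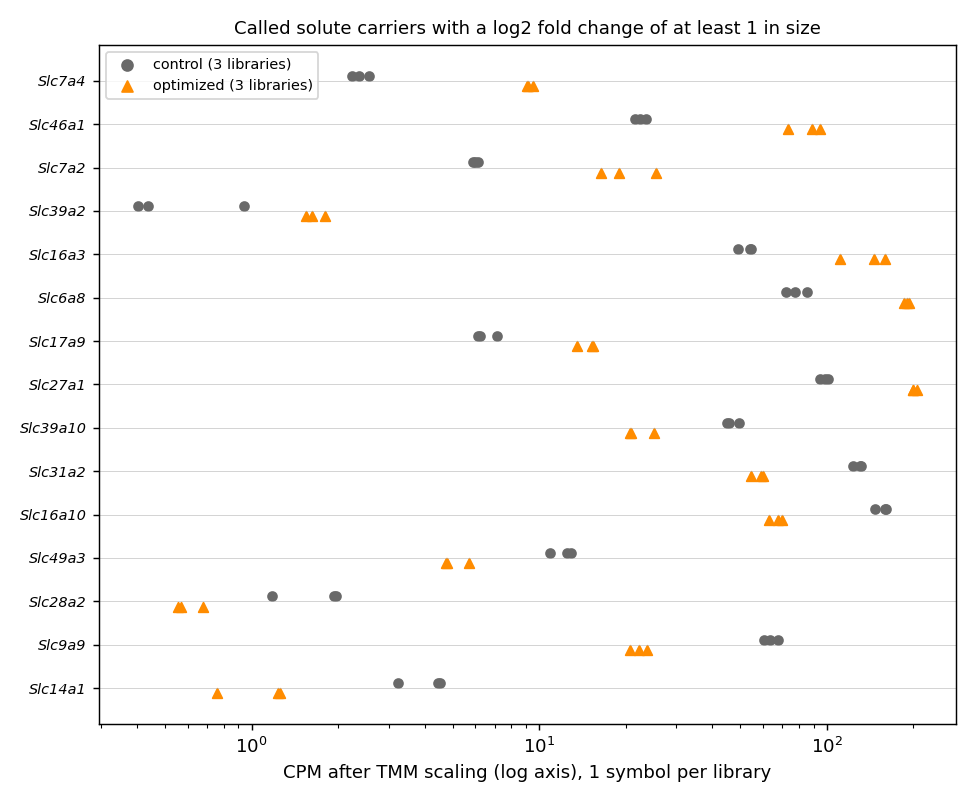
CPM after TMM scaling (horizontal log axis), with 1 symbol per library, for the 8 members called higher and the 7 called lower (vertical axis) whose log2 fold change was 1 or more in size, in control (grey circles) and optimized (orange triangles) libraries. For each of these genes the 3 optimized values lie apart from the 3 control values.

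Of the 14 sugar and polyol carriers, 5 were higher, 3 lower and 6 not called, with a median of 0.21. With library size alone 3 were higher and 3 lower, with a median of 0.09. Of the higher calls, that of Slc45a3 (0.44) was lost under 12 of 15 alternatives and that of Slc2a9 (0.36) under 10 of 15. Slc2a1 (chr4:118965908-118996365), the basal glucose carrier, measured 95.4, 86.0 and 92.2 CPM in control and 118, 134 and 142 CPM in optimized libraries, 0.53 ± 0.09 with an adjusted p of 0.0021. Slc2a3, the high-affinity glucose carrier typical of neurons, was scarce, with 2.75, 3.71 and 2.27 CPM and then 5.07, 5.79 and 6.19 CPM (0.97 ± 0.21, adjusted p = 0.0063). Both were above control in every optimized library. Slc2a6, a glucose carrier of lysosomal membranes that inflammatory macrophages raise, was lower, from 100, 101 and 109 CPM to 56.8, 66.7 and 65.3 CPM (-0.72 ± 0.09, adjusted p = 0.00022). Slc37a2, a sugar phosphate exchanger of the endoplasmic reticulum abundant in macrophages, measured 266, 260 and 265 CPM and then 373, 369 and 368 CPM (0.49 ± 0.08, adjusted p = 0.00084). Slc45a4 (-0.37) and Slc37a3 (-0.32) were the other members that fell. Without control replicate 1 their adjusted p was 0.054 and 0.0999 respectively, and the Slc37a3 call was also lost on leaving out either other control library or optimized replicate 3.

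Among 7 carriers of lactate, pyruvate and other carboxylates, 2 were higher, 1 lower and 4 not called. Slc16a3 (chr11:120838846-120851694), the lactate exporter of glycolytic cells, measured 54.1, 49.1 and 54.4 CPM in control and 112, 159 and 146 CPM in optimized libraries. The groups were well apart, at 1.40 ± 0.13 with an adjusted p of 2.6e-05. Its exons overlap those of Csnk1d on the other strand over 40.1% of their length. Csnk1d had 2.14 times its count and a log2 fold change of 0.19. The strand setting of the counting is not given in the sources used here. Slc16a7, the high-affinity pyruvate and lactate importer, fell from 17.5, 18.4 and 17.2 CPM to 13.4, 10.4 and 11.4 CPM (-0.60 ± 0.12, adjusted p = 0.0039). Slc16a1, the importer shared by most cells, was not called (0.17 ± 0.11, adjusted p = 0.28). Basigin (Bsg), which takes Slc16a1 and Slc16a3 to the surface, measured 254, 270 and 289 CPM and then 358, 567 and 496 CPM (0.81 ± 0.15, adjusted p = 0.0027). Txnip, an arrestin that promotes the removal of Slc2a1 from the surface, fell from 301, 286 and 303 CPM to 138, 127 and 136 CPM (-1.15 ± 0.08, adjusted p = 4.1e-06).

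The promoters of Slc16a3 and Slc2a1 are shown because these genes carry glucose and lactate, were higher, and have matches to the core ACGTG, the letters that hypoxia-inducible factors bind. They are the 250 bases before and 50 after the start in RefSeq, on GRCm38.p6, a build other than that of the counts. Capitals mark each match, and positions count from the start as 0. Slc16a3, chr11:120948817-120949116, plus strand, has matches that begin at -27 and -14 from the start, and Slc2a1, chr4:119108495-119108794, plus strand, has 1 at -36.
Slc16a3: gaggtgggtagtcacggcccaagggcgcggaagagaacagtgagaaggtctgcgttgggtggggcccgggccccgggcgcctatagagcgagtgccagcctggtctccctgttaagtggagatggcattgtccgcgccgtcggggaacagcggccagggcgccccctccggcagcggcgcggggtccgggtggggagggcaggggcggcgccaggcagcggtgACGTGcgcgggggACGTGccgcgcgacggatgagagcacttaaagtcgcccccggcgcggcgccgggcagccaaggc
Slc2a1: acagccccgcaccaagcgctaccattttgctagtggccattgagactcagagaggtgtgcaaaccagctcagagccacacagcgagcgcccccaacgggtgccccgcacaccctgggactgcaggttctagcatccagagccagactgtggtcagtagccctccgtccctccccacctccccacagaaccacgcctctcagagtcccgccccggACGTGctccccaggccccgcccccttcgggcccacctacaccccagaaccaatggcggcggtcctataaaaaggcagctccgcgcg
Searched on both strands, ACGTG was in 19.6% of 32851 mouse promoters. Of the 102 carriers matched to a promoter, 12 of 28 called higher, 8 of 20 called lower and 15 of 54 not called had it, where 21.8% of all genes did. The match is a description of letters.

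Metal carriers moved in both directions. Of 24 carriers of zinc, copper, magnesium and heme, 6 were higher, 7 lower and 11 not called, with a median of 0.01. The balance held under TMM and RLE factors, while library size alone gave 2 higher and 9 lower (median -0.12) and limma on log2(FPKM + 1) gave 2 higher and 10 lower. Without optimized replicate 1, 8 were higher and 8 lower, with a median of -0.0022. Slc31a2 (chr4:62180799-62220050), a relative of the copper importer found on endosomes and lysosomes, measured 124, 130 and 132 CPM in control and 54.7, 59.9 and 58.9 CPM in optimized libraries. The groups lay far apart, at -1.15 ± 0.08 with an adjusted p of 4.3e-06. Fkbp15 on the other strand overlaps 11.6% of the exons of Slc31a2, with 1.33 times its count and a log2 fold change of -0.26. Slc31a1, the copper importer of the plasma membrane, was not called (-0.14 ± 0.08, adjusted p = 0.23). Slc48a1, which passes heme out of the lysosomes in which macrophages digest red cells, fell from 316, 320 and 384 CPM to 178, 203 and 205 CPM (-0.80 ± 0.10, adjusted p = 0.00027). Hdac7, at -1.22, overlaps 82.1% of the exons of Slc48a1 on the other strand, with 0.031 times its count.

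Zinc carriers included 1 surface exporter that fell and importers in both directions. Slc30a1 (chr1:191638808-191645361), the main zinc exporter of the cell surface, measured 50.8, 63.5 and 50.7 CPM in control and 32.6, 28.4 and 25.3 CPM in optimized libraries (-0.93 ± 0.13, adjusted p = 0.00034). Of the importers, Slc39a10 fell from 49.4, 45.0 and 45.6 CPM to 25.1, 20.9 and 20.7 CPM (-1.07 ± 0.10, adjusted p = 3.8e-05), and Slc39a1 fell by 0.38. Slc39a4, the intestinal zinc importer, measured 17.0, 21.0 and 18.6 CPM and then 31.9, 29.5 and 30.8 CPM (0.70 ± 0.11, adjusted p = 0.00062). The groups did not overlap for any of these genes. Slc39a2 rose by 1.48 ± 0.37 (adjusted p = 0.014) from 10, 23 and 11 counts to 38, 38 and 32 counts; it shares exon bases with Mettl17 on the same strand, which had 13.1 times its count. Without control replicate 1 or control replicate 3 its adjusted p was 0.064 and 0.068. Slc39a8 and Slc39a14, importers of zinc and manganese, were not called (0.28 and 0.21).

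The promoter of Slc30a1 is printed because this gene is a known target of the zinc-sensing factor Mtf1. It lies at chr1:191906531-191906830, plus strand, in RefSeq on GRCm38.p6, and capitals mark matches to the metal response element core, TGCGCNC or TGCACNC, here on the other strand, beginning at -43 and 30.
Slc30a1: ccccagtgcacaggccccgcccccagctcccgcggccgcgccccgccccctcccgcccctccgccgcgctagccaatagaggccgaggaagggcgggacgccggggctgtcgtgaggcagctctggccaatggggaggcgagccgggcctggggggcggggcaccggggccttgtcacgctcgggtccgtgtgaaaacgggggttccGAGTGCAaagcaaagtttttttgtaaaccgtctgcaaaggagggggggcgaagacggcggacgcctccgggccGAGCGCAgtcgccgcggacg
Searched on both strands, this core was in 25.7% of promoters and in 28.2% of genes. It was in 10 of 28 carriers called higher, 10 of 20 called lower and 26 of 54 not called. Of other metal carriers looked at for this core, the promoters of Slc39a10 held 0 matches, and that of Slc31a2 held 1, beginning at -238. The C/EBP and ATF core TGATGNAA, of the amino acid response, was in 3.97% of promoters and in 4.51% of genes, and in 1 of 28, 1 of 20 and 4 of 54 carriers of the same classes.

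Among 10 carriers of vitamins and cofactors, 1 was higher, 2 lower and 7 not called, and 3 were higher and 2 lower without optimized replicate 1. Slc46a1 (chr11:78356410-78362885), the proton-coupled folate importer, measured 21.6, 22.5 and 23.6 CPM in control and 73.2, 94.7 and 89.1 CPM in optimized libraries. It was the second highest member by fold, at 1.93 ± 0.11 with an adjusted p of 1.3e-06. Over 54.8% of its exon bases it overlaps Sarm1 on the other strand, which had 0.505 times its count and a log2 fold change of 1.99, and without a stated strand setting the reads of these genes cannot be told apart. Slc46a3, a lysosomal member of the family, fell from 47.8, 47.0 and 43.3 CPM to 28.8, 31.0 and 28.2 CPM (-0.65 ± 0.09, adjusted p = 0.00037); Pomp overlaps 44.5% of its exons on the other strand, with 3.11 times its count and a log2 fold change of -0.47. Slc49a3, whose substrate is not known, fell from 12.5, 12.9 and 10.9 CPM to 4.73, 4.77 and 5.71 CPM (-1.26 ± 0.14, adjusted p = 9.0e-05). Slc19a1, the reduced folate carrier, was not called (0.20 ± 0.14, adjusted p = 0.32).

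The group of inorganic ions and protons, which also took in the urea carrier Slc14a1, held 25 carriers. Of these, 4 were higher, 6 lower and 15 not called, with a median of 0.03. Without optimized replicate 1, 2 were higher and 8 lower, with a median of -0.07, and with library size alone 2 were higher and 6 lower, with a median of -0.10. Slc14a1, a urea carrier, was the member with the largest fall, from 103, 109 and 88 counts to 16, 29 and 26 counts. Its log2 fold change was -1.89 ± 0.27 with an adjusted p of 0.00045, at a level close to the count minimum. Slc9a9 (chr9:94551669-95112500), a sodium-proton exchanger that tunes the pH of recycling endosomes, measured 63.5, 67.8 and 60.3 CPM in control and 20.6, 23.8 and 22.2 CPM in optimized libraries. At -1.52 ± 0.09 and an adjusted p of 1.9e-06 it fell further than any other carrier above 5 CPM.

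In the chloride cotransporter family Slc12, 3 of 5 members fell and 1 was higher. Slc12a4 fell by 0.63 and Slc12a7 by 0.57, both exporters, and Slc12a9, a relative without a settled substrate, fell by 0.69. Slc12a2, the sodium-potassium-chloride importer, measured 50.8, 60.7 and 50.1 CPM and then 85.6, 66.3 and 62.0 CPM (0.40 ± 0.13, adjusted p = 0.045), a call lost under 8 of 15 alternatives. Its adjusted p was 0.052 without optimized replicate 1 and 0.051 to 0.16 without each control library. Slc8a1, the sodium-calcium exchanger, rose from 75.6, 73.6 and 66.0 CPM to 145, 106 and 125 CPM (0.81 ± 0.12, adjusted p = 0.00058). Slc26a10 rose by 0.60, with B4galnt1, itself at 0.62, on the other strand of 53.8% of its exons.

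Vesicular and lysosomal carriers of peptides and other solutes numbered 7, of which 3 were higher and 1 lower, with a median of 0.13. Without optimized replicate 1, 3 were higher and 2 lower, with a median of -0.17, and with library size alone 1 was higher and 1 lower. Slc15a3, which exports peptides and histidine from lysosomes and was the most abundant carrier per length, measured 338, 312 and 350 CPM in control and 375, 429 and 434 CPM in optimized libraries (0.31 ± 0.09, adjusted p = 0.032). That call was lost under 10 of 15 alternatives, which include the removal of any library but optimized replicate 1 (adjusted p from 0.064 to 0.15). Tmem132a, at 0.61, overlaps its exons on the other strand with 0.335 times its count. Slc15a4, its relative that supports signalling of the nucleic acid sensing Toll-like receptors, fell from 88.1, 87.9 and 84.0 CPM to 56.7, 59.0 and 54.2 CPM (-0.61 ± 0.08, adjusted p = 0.00025) and held its call under every alternative. Slc17a9, which loads ATP into secretory vesicles and lysosomes, measured 7.13, 6.12 and 6.22 CPM and then 15.4, 15.3 and 13.5 CPM (1.19 ± 0.12, adjusted p = 6.2e-05). Slc17a5, the lysosomal sialic acid exporter, rose by 0.38 ± 0.08 (adjusted p = 0.0066), a call lost with library size alone and under the 3 limma alternatives (adjusted p up to 0.092).

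Nucleoside carriers numbered 5, with 1 higher and 2 lower. Slc29a1, the equilibrative adenosine carrier of the plasma membrane, measured 54.7, 63.1 and 60.7 CPM in control and 41.8, 47.6 and 46.5 CPM in optimized libraries (-0.39 ± 0.09, adjusted p = 0.010, or 0.056 without control replicate 2). Slc29a3, its lysosomal counterpart, measured 104, 93.6 and 94.5 CPM and then 122, 117 and 118 CPM (0.29 ± 0.08, adjusted p = 0.024), a call lost under 8 of 15 alternatives. Its adjusted p was 0.11 without control replicate 2, 0.12 without control replicate 3 and 0.077 without optimized replicate 3. The concentrative carrier Slc28a2 was near the count minimum, with 27, 48 and 53 counts and then 12, 13 and 14 counts (-1.50 ± 0.33, adjusted p = 0.0068).

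Fatty acid and choline carriers numbered 5, and 2 were higher. Slc27a1 (chr8:72021095-72041866), a fatty acid transport protein with acyl-CoA synthetase activity, measured 101, 98.6 and 94.7 CPM in control and 205, 200 and 200 CPM in optimized libraries, 1.04 ± 0.08 with an adjusted p of 5.7e-06. Slc44a2, a choline carrier, rose by 0.67 ± 0.09 (adjusted p = 0.00036), and Slc44a1, the main choline carrier of this family, was at -0.23 ± 0.08 with an adjusted p of 0.057. Among 8 organic ion and bile acid carriers, Slc22a4, the ergothioneine carrier, rose by 0.91 ± 0.13 (adjusted p = 0.00046) and Slc22a17, a receptor for lipocalin-bound iron, by 0.80 ± 0.11 (adjusted p = 0.00042). None of the 5 Slc35a carriers of nucleotide sugars among the members passed edgeR's test, with log2 fold changes between -0.18 and 0.21. Slc35 genes with a letter other than a do not match the symbol pattern and were not looked at. Slc35a4 was called lower with library size alone (-0.31, adjusted p = 0.020), and Slc35a2 higher without optimized replicate 1 (0.30, adjusted p = 0.019). The remaining Slc66a2 (0.40) and Slc66a3 (-0.29) were called in opposite directions. Leaving out any library ended the call of Slc66a3 (adjusted p from 0.051 to 0.16), and any but optimized replicate 1 that of Slc66a2 (0.080 to 0.12).

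Members of the same family went opposite ways in some families. Of 43 families, 35 had at least 2 carriers, and 14 of them held both a higher and a lower call. Those 14 families held 70 carriers, of which 43 were called. The count depended on the settings: 7 families held calls in both directions with library size alone, 6 to 12 when a library was left out, and 5 among the calls that no alternative ended. Those 5 were Slc2, Slc7, Slc16, Slc39 and Slc46, with pairs such as Slc7a2 and Slc7a1, Slc16a3 and Slc16a7, and Slc46a1 and Slc46a3. A count of this kind in other gene families was not made.

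**Figure D4:**
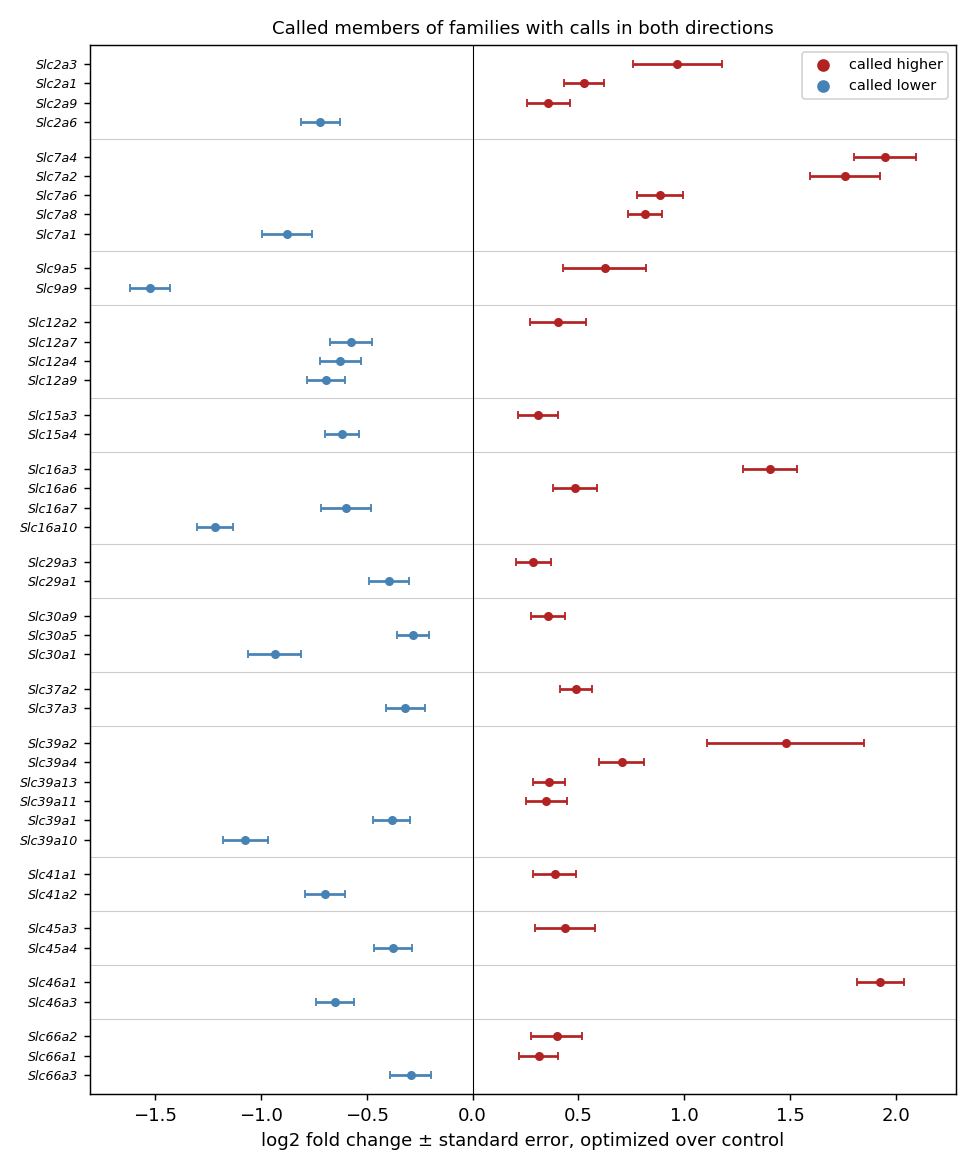
Log2 fold change, optimized over control (horizontal axis), with bars of 1 standard error, of the called members (vertical axis) of the 14 families with calls in both directions, red if higher and blue if lower. The 43 members shown lie on both sides of 0 in every family, from Slc9a9 at -1.52 to Slc7a4 at 1.95.

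Here levels of different carriers are compared per length, in FPKM. The most abundant carrier was Slc15a3 (144 FPKM in control, 162 FPKM in optimized libraries), followed by Slc6a6 (135 and 115 FPKM) and Slc48a1 (136 and 71.3 FPKM), then Slc37a2 (65.2 and 83.1 FPKM) and Slc39a7 (58.4 and 60.6 FPKM), a zinc exporter of the endoplasmic reticulum. In all, 25 carriers had a mean of at least 20 FPKM and 21 had under 1 FPKM. Among the carriers with the largest fold, Slc7a4 (0.616 and 2.16 FPKM) and Slc7a2 (0.671 and 2.08 FPKM) were scarce in FPKM, while Slc46a1 (11.6 and 39.9 FPKM), Slc6a8 (19.9 and 43.9 FPKM) and Slc27a1 (20.3 and 37.9 FPKM) were among the 20 most abundant.

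**Figure D5:**
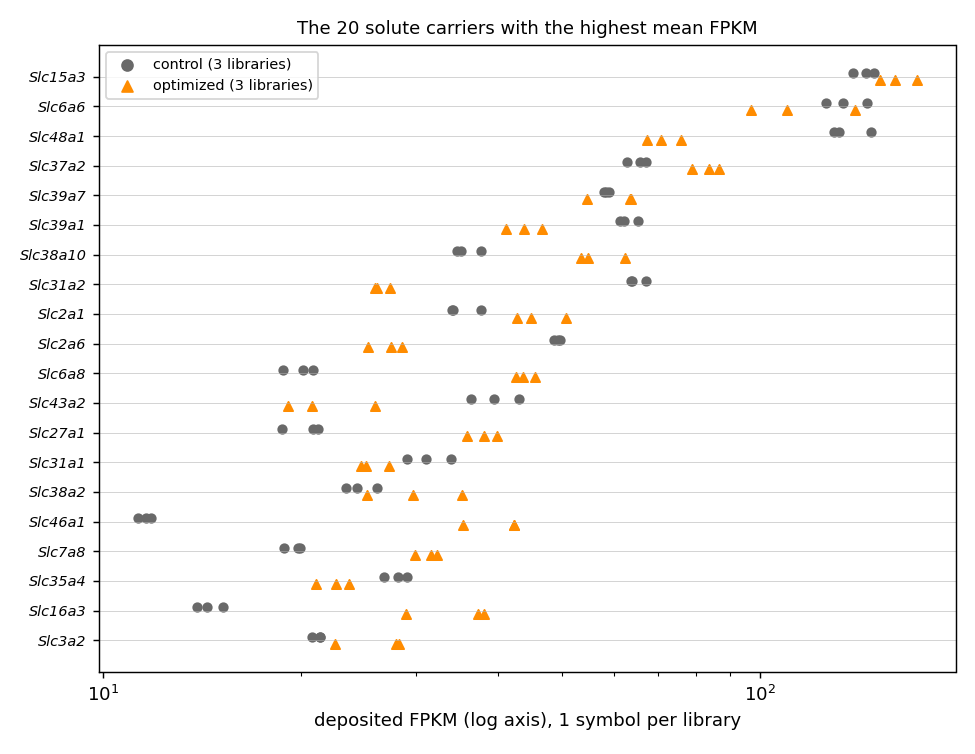
Deposited FPKM (horizontal log axis), with 1 symbol per library, of the 20 carriers of highest mean FPKM (vertical axis), in control (grey circles) and optimized (orange triangles) libraries. Slc15a3 is at the top, and Slc48a1, Slc31a2, Slc46a1 and Slc16a3 show optimized values well apart from control values.

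Calls by membrane are given as counts without a test, over a list that gives each carrier 1 membrane and does not hold Slc31a2 or Slc17a9. Of 17 carriers of lysosomes and endosomes on it, 5 were higher, 6 lower and 6 not called. Of 21 of the Golgi and endoplasmic reticulum, 3 were higher, 2 lower and 16 not called. Of 102 not listed as organelle carriers, 31 were higher, 18 lower and 53 not called.

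Rows under the count minimum were few in counts. Of 157, 58 were at 0 in every library, 67 had a highest count of 1 to 9, and 32 reached 10 in some library. Just inside the rule were Slc39a2 (lowest count 10), Slc6a17 and Slc22a15 (11), Slc28a2 (12) and Slc7a3 (13), and just outside it Slc4a4 (9), Slc16a4 (8), Slc7a15 (6), Slc1a1 (5) and Slc38a3 (5). Of the 157, 10 were tested and 5 called. Slc36a2, a proton-coupled amino acid carrier, had 1, 0 and 0 counts in control and 19, 16 and 17 counts in optimized libraries. The 4 lower ones were Slc13a3 (34, 33 and 48 against 2, 1 and 5 counts), Slc39a12 (26, 24 and 31 against 6, 2 and 5 counts), Slc12a5 (31, 11 and 36 against 0, 7 and 1 counts) and Slc4a11 (19, 26 and 29 against 12, 10 and 4 counts). Slc39a12 is a gene of astrocytes and Slc12a5 of neurons in the brain. The lower astrocyte sum rested on Aldh1l1, the neuronal sum was not lower (2.09 to 3.41 CPM in control, 4.16 to 4.60 CPM in optimized libraries), and their part was not tested.

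Carriers that bear another symbol were described from a separate list of 32, of which 28 were tested, 6 higher and 5 lower, with a median of 0.14. Slco2b1, an organic anion carrier typical of microglia in the brain, measured 45.1, 41.1 and 38.1 CPM in control and 397, 417 and 402 CPM in optimized libraries (3.29 ± 0.10, adjusted p = 4.0e-08). Spns2, the exporter of sphingosine 1-phosphate, measured 0.92, 0.41 and 0.77 CPM and then 6.25, 5.88 and 6.97 CPM (3.18 ± 0.27, adjusted p = 1.5e-05). Sfxn5, a mitochondrial carrier, fell by 0.81 and Mfsd1, a lysosomal carrier, by 0.54. Of 15 partners and regulators of carriers, 2 were higher and 1 lower; they were Bsg, Arrdc3 and Txnip, and Emb was not called.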

How the data were processed

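Bulk RNA-seq of total RNA was deposited for 3 control and 3 optimized libraries. Per the study's methods, the authors used HISAT2 for mapping to mm39 and featureCounts for counting, both run in Galaxy; versions, annotation and strand setting are not given in the sources used here. The deposited tables hold raw counts per gene, without normalization, and FPKM values made by the authors, for the same 41079 genes. The tables hold 0 columns of other samples.

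Groups came from the labels. Counts were tested in R 4.3.3 with edgeR 4.0.16: filterByExpr, TMM factors, glmQLFit and glmQLFTest, Benjamini-Hochberg adjustment over 14618 genes, threshold 0.05. The standard error is the size of the log2 fold change over the square root of F. Log2 fold changes are optimized against control. FPKM served for levels and for limma 3.58.1 alternatives on log2(FPKM + 1) and log2(FPKM + 0.1). The test was checked on simulated data. No 2 libraries of a group agreed within sampling noise (chi-square per degree of freedom at least 10.7).

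The members, substrate groups and lists were chosen with earlier results of these data known. Genes named are, in each substrate group, up to 3 of the highest and 3 of the lowest called members and the most abundant one, the 5 rows on either side of the count minimum, carriers of well known role, and Bsg, Emb, Txnip and the 2 highest and 2 lowest called carriers of another symbol. Some genes under this rule are not reported here. Others named (Slc18a1, Slc26a2, Slc35a2, Aldh1l1, Slc38a10, Slc38a6, Slc66a1, Slc12a4, Slc12a7, Slc39a7, the called rows under the minimum, Arrdc3, the sensing genes and genes of the library that stood apart) were chosen after their values were seen. Slc2a9, Slc45a3 and Slc38a7 were also added after their values were seen. Exon overlaps are from GENCODE M39 on GRCm39. Alternatives were DESeq2 1.42.0, other scaling, filters, leaving out each library and a replicate block.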

Additional observations from a re-analysis of the deposited data

Results flagged for a closer look

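Signals outside the members, above the control libraries. In optimized replicate 1, Slc28a3 had 49 counts, Slc27a2 23, Slc5a9 21, Slc26a4 19, Slc44a4 16, Slc5a8 13 and Slc2a12 12. Slc36a2 had 19 counts in optimized replicate 1, and its counts in the other optimized libraries are given in the report. Slc27a6 had 10 counts in optimized replicate 2. The cause was not tested.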

How the results depend on the processing

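Of the 65 calls, 40 (20 higher, 20 lower) held under every alternative that tested them, 37 of them under all 15 and Slc14a1, Slc28a2 and Slc2a3 under 14, since the mean FPKM minimum leaves these out. No call was reversed. With library size alone, calls were gained by Slc7a5 (-0.46), Slc44a1 (-0.36), Slc35a4 (-0.31) and Slc31a1 (-0.28), among others. Called higher were 23 carriers with library size alone, 21 with limma on log2(FPKM + 1), 21 with log2(FPKM + 0.1) and 19 with mean FPKM at least 1. The median log2 fold change was -0.050, -0.033, -0.059 and -0.027 in the same order, and 0.058 with no filter on low counts. Leaving out 1 library at a time gave medians from 0.033 to 0.105, with 27 to 44 higher and 21 to 30 lower. Some uncalled carriers changed sign. With library size alone, Slc1a5 was at -0.076 and Slc20a1 at -0.065. Leaving out 1 library at a time gave Slc1a5 -0.21 to 0.17, Slc20a1 -0.018 to 0.11 and Slc38a9 -0.0098 to 0.21, with Slc1a5 at -0.019 without control replicate 3. With limma on log2(FPKM + 1), with and without the mean FPKM minimum, Slc1a5 was at -0.11, Slc20a1 at -0.072 and Slc38a9 at -0.0035, and with log2(FPKM + 0.1) they were at -0.13, -0.080 and -0.0072. The cause was not tested. With the replicate number as a block, 43 were higher and 28 lower and all 65 calls were kept; deviations of same-numbered libraries correlated at 0.273, -0.012 and 0.185, so the numbers were not taken as pairs. Genes with few counts carry the largest errors.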
